A study of Mus musculus with 18 samples.

Results

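The cells described here expressed Mesp1 without Foxa2 in mouse embryos at gastrulation, and they were compared between embryonic day (E) 7.5 and E6.75. They were selected on measured values. A cell had to hold at least 2000 transcripts of nuclear genes, fewer than 5 transcripts per 10000 of the visceral endoderm genes Ttr, Apoa1 and Spink1 together, at least 1 transcript of Mesp1 and 0 of Foxa2. Of 972 cells with at least 2000 transcripts, 154 met the rule, 29 at E6.75 and 125 at E7.5. They are called Mesp1 cells below.

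Both stages came from whole C57BL/6 WT embryos, sampled by single-cell RNA sequencing in libraries of 96 cells. From E6.75 embryos the extraembryonic part was removed, each embryo was dissociated on its own with TrypLE, and cells were picked by hand for the CEL-Seq2 protocol (6 libraries). E7.5 embryos were cut below the chorion, so that extraembryonic mesoderm stayed in, those of one or a pair of litters were pooled, and cells were sorted by flow cytometry for mCEL-Seq2, a small-volume robotic form of the protocol (12 libraries). Stage, dissection, pooling, the way of collecting cells and the protocol version changed together, so their parts in any difference below cannot be told apart. The labels do not tie libraries to embryos, and the p-values measure the spread between libraries.

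Mesp1 encodes a basic helix-loop-helix transcription factor that is switched on in epiblast cells as they pass through the primitive streak and become mesoderm. T and Eomes, both T-box factors, act upstream of it in the streak. Its descendants include heart, cranial and extraembryonic mesoderm, while Foxa2 marks the endoderm and axial mesoderm that leave the anterior streak. Cells that leave the streak lose E-cadherin, become mesenchymal and migrate between the germ layers.

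The promoter of the selecting gene itself holds a T-box motif, and is shown because T and Eomes are followed below. In the RefSeq window of Mesp1 (GRCm38.p6, chr7:79793567-79793596, minus strand), the capitals mark the octamer TCACACCT on the strand of the gene, starting 5 bases after the start of transcription in that table.

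Mesp1: aggggcccgctTCACACCTagggctcagga

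TCACACCT, or AGGTGTGA on the other strand, stood in 1.28% of 32851 RefSeq promoter windows of 300 bases. Among genes whose level differed between the stages below, it stood in the window of 2 of 264 matched genes that were higher at E7.5 (0.758%) and of 5 of 287 that were lower (1.74%), beside 44 of 5324 matched genes tested (0.826%). A match is a description of letters in this window, not a binding site.

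At E6.75 the 29 Mesp1 cells came from 3 libraries, with 15 cells in replicate 2_13, 11 in 2_14 and 3 in 2_9. The other E6.75 libraries (1_10, 1_11 and 2_12) held 0. At E7.5, 11 libraries held between 3 (replicate 12) and 26 (replicate 1) of them, and replicate 5 had no cell that passed the depth minimum. Mesp1 cells made up 17.9%, 12.5% and 4% of the cells left after the endoderm cut in 2_13, 2_14 and 2_9, and 10.8% to 66.7% at E7.5. The median depth of a Mesp1 cell was 61109 transcripts at E6.75 and 39958 at E7.5. The summed Mesp1 cells of a library held between 66678 transcripts (E7.5 replicate 12) and 981888. Mitochondrial transcripts were 11.3% to 13.8% of the total in E6.75 libraries and 8.40% to 13.6% in E7.5 libraries. Most libraries filled a barcode set that others also filled, while 2_13 and 2_14 each had a set found in no other library. Among Mesp1 cells, 0 pairs had identical profiles.

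Replicate 2_9 and E7.5 replicate 12 stand apart, with 3 cells each. In 2_9, only 1 cell held more than 1 Mesp1 transcript, its Mesp1 level was the lowest of all 14 libraries, and Gata4, Gata6, Kdr, Fgf3, Irx5 and Pdgfra were at 0.

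Mesp1 itself was used by the rule and is described without a test. Per 1000000 transcripts of the summed cells (CPM), it stood at 32.7 in 2_9, 327 in 2_13 and 332 in 2_14, and at 102 to 278 across the E7.5 libraries with a median of 149. The E7.5 range thus lay between the lowest and the higher values of E6.75. Single cells held a median of 4 UMIs of Mesp1 at the earlier stage and 3 at the later one, with maxima of 72 and 45. Exactly 1 Mesp1 transcript was found in 12 of 29 Mesp1 cells at E6.75 and in 41 of 125 at E7.5. Of 48 visceral endoderm cells left out at E6.75 (median depth 24062), 3 (6.25%) held Mesp1. Pooled over the 48 cells, Mesp1 was at 18.6 CPM, where a gene found in only 1 cell, Tbx6, was at 0.809 CPM. The 3 cells together thus held more Mesp1 than 1 transcript each would give, but their separate counts are not given here. Their share is therefore not read as a rate of stray transcripts. The endoderm cut left out 0 cells with Mesp1 and without Foxa2 at E6.75, so all 3 cells also held Foxa2.

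**Figure D1:**
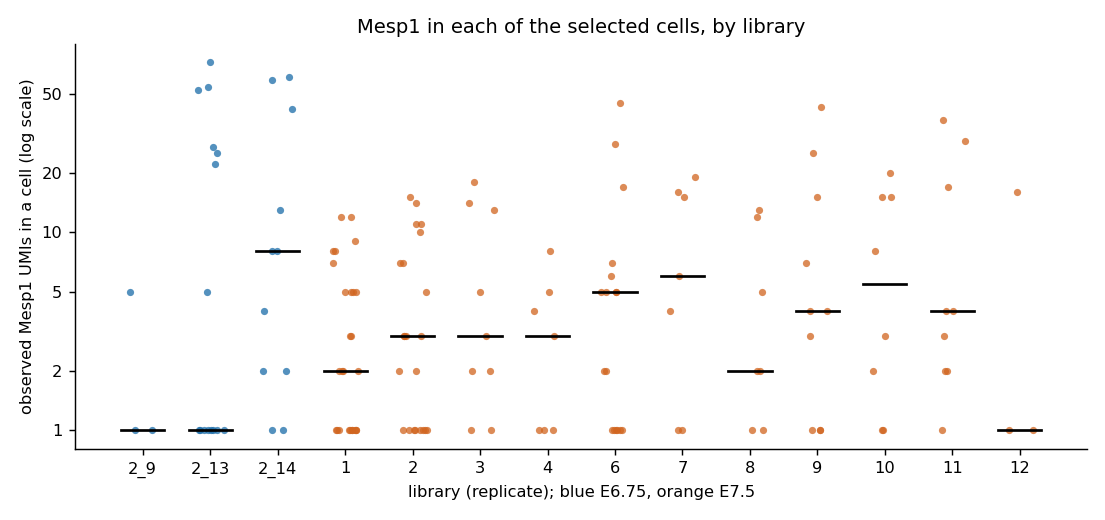
Each point is 1 Mesp1 cell, with its observed Mesp1 UMIs on a log axis, by library (blue E6.75, orange E7.5), and each bar is a library's median. At E6.75, 12 of 29 cells lie at the threshold of 1 transcript, most of them in replicate 2_13, while at E7.5 41 of 125 do.

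The cells at the threshold of 1 transcript differed from those above it, most of all at E6.75. At that stage, the 12 cells with 1 Mesp1 transcript had levels near those of the 141 Mesp1-negative, Foxa2-negative cells of the same libraries for several genes (pooled cells, no test). Utf1, a chromatin-associated pluripotency factor, was at 577 CPM in cells with 1 transcript, 641 in cells with none and 49.9 in the 15 cells with 3 or more. Mixl1, a homeobox factor of the streak, was at 23.5, 9.20 and 556 CPM in the same order. Gata4, a zinc finger factor of heart and endoderm, was at 0, 3.94 and 249 CPM, and Lhx1, a LIM homeobox factor, at 11.8, 7.30 and 601. Fn1, which encodes the matrix protein fibronectin, was at 82.3, 57.7 and 863 CPM. High Mixl1, Gata4, Lhx1 and Fn1 at E6.75 were thus found in the cells with 3 or more Mesp1 transcripts.

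At E7.5 the step from 1 to 3 or more Mesp1 transcripts was smaller for Mixl1, Gata4 and Fn1. Mixl1 was at 34.6 and 105 CPM in these classes, and Gata4 at 19.8 and 81.1. Fn1 was at 562 CPM in cells with 1 Mesp1 transcript, 373 in the 242 Mesp1-negative cells and 1221 in cells with 3 or more. T was already at 577 CPM in cells with 1 transcript and at 665 in those with 3 or more. Cdh1, the gene of E-cadherin, was at 322 CPM (E6.75) and 244 CPM (E7.5) in Mesp1-negative cells. It was at 370 and 195 CPM in cells with 1 Mesp1 transcript and at 101 and 48.3 in cells with 3 or more. Just outside the other threshold, 18 cells at E6.75 and 12 at E7.5 held Mesp1 and Foxa2 and were left out. Their pooled Eomes was 870 CPM at E6.75, and their pooled T was 384 CPM at E6.75 and 1298 at E7.5.

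**Figure D2:**
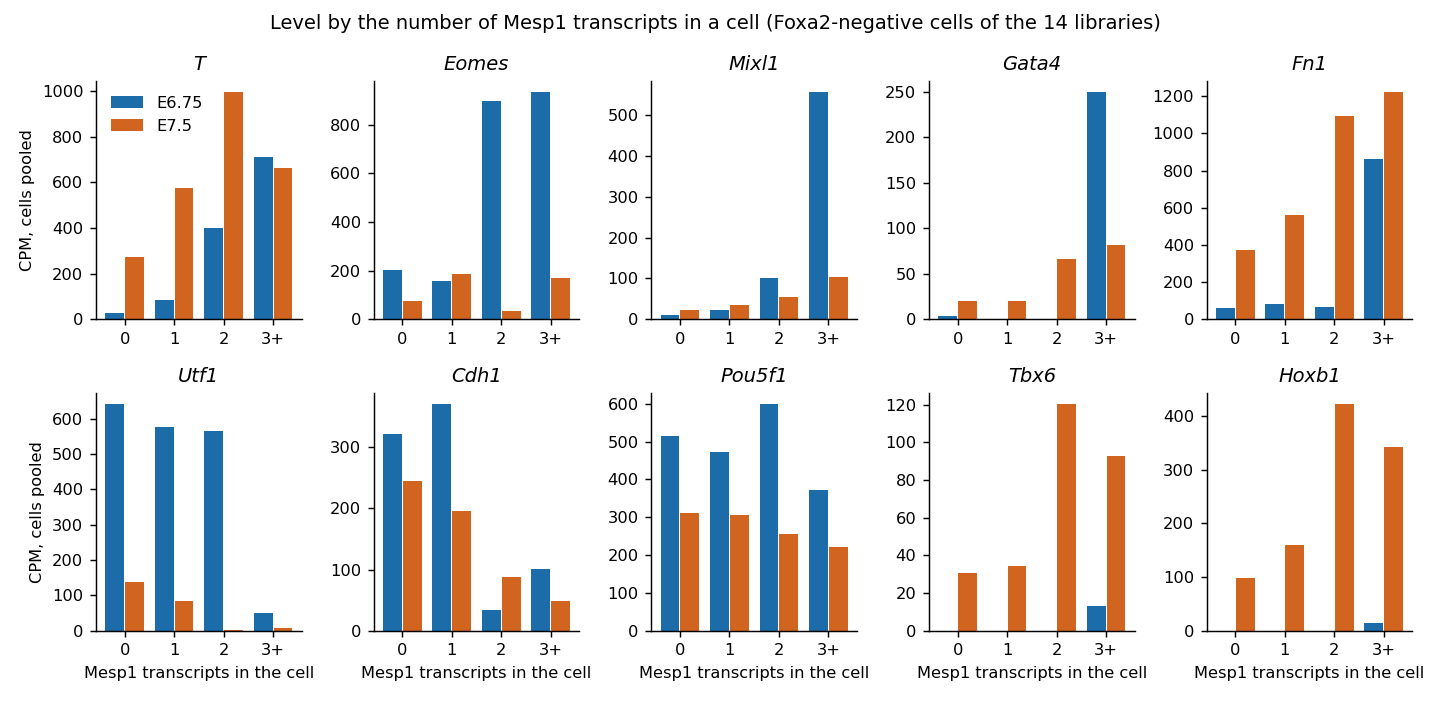
Bars give the level (CPM, transcripts of all cells of a class pooled, so without an error) of 10 genes in Foxa2-negative cells with 0, 1, 2 or 3 and more Mesp1 transcripts, in blue for E6.75 and orange for E7.5. At E6.75 Mixl1, Gata4 and Fn1 are highest in the class of 3 or more, while Utf1 is at 49.9 CPM there and at 566 or more in the other classes.

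T divided the E6.75 cells in the same way. T was found in 19 of the 29 cells, of which 3 had 1 Mesp1 transcript, and Mixl1 was found in all 19 and Gata4 in 14. Of the 10 cells without T, 9 had 1 Mesp1 transcript, 0 had Gata4 or Pdgfra (a count of 0 in 10 cells allows a share of up to 30.0%), and all 10 held Utf1. Eomes was found in all 29. At E7.5, 108 of 125 cells held T and 76 held Eomes. Median depth was 61109 in E6.75 cells with T and 58218 in those without. Where a named call below did not pass in cells with at least 2 Mesp1 transcripts, this is stated beside it. This fit leaves 16 cells in 2 E6.75 libraries and 83 cells in 10 E7.5 libraries.

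The main comparison asks which genes differed in Mesp1 cells between the stages. Transcripts were summed over the Mesp1 cells of each library, and 3 E6.75 libraries were compared with 11 E7.5 libraries. Of 6980 genes tested, 402 were higher at E7.5 (5.76%) and 384 were lower (5.50%), together 786 or 11.3% (quasi-likelihood F test of edgeR, p adjusted by Benjamini-Hochberg and under 0.05). For 501 genes, 7.18% of those tested, all E7.5 libraries lay above, or all lay below, every E6.75 library, and 423 of these were among the 786. The median log2 change over all tested genes was 0.028. These counts include differences shared with other cells of the same libraries, for which values are given with the last comparison below. Without the libraries of fewer than 5 cells, 2_9 and E7.5 replicate 12, 450 genes of 7494 differed, 409 of them among the 786. With at least 2 Mesp1 transcripts, 228 of 6709 differed, 194 of them among the 786. Of the 402 higher genes, 390 could be tested in that fit and 390 had the same direction, and of the 384 lower genes 355 of 358 did. That fit uses a part of the same cells, and the genes were picked in all of them. Agreement in direction was thus largely built in and is not independent support.

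Genes named below come from lists of pathway and cell type genes and from the 12 largest rises and falls under a fixed rule. Among named genes, 76 were higher and 51 lower. When each library was left out in turn and when cells with 1 Mesp1 transcript were left out, 21 of the 76 and 15 of the 51 passed in every such fit that tested them, which was all of them except for Unc5c, tested in 12 of the 14 fits without a library. The 21 were Aplnr, Bmp4, Crabp1, Foxc1, Foxc2, Foxf1, H19, Hes7, Hoxb1, Ifitm1, Igf2, Kcnq1ot1, Lama1, Lhfpl2, Pcdh19, Phlda2, Rspo3, Smad3, Tbx6, Twist1 and Unc5c. The 15 were Apln, Dnmt3b, Dppa5a, Dusp6, Egr1, Esrp1, Etv5, Hsp90aa1, L1td1, Mixl1, Nanog, Nefl, Pmepa1, Skil and Utf1. Leaving out replicate 2_13 ended the call of 56 named genes, more than any other single library, and leaving out 2_14 and 2_9 ended 37 and 32.

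**Figure D3:**
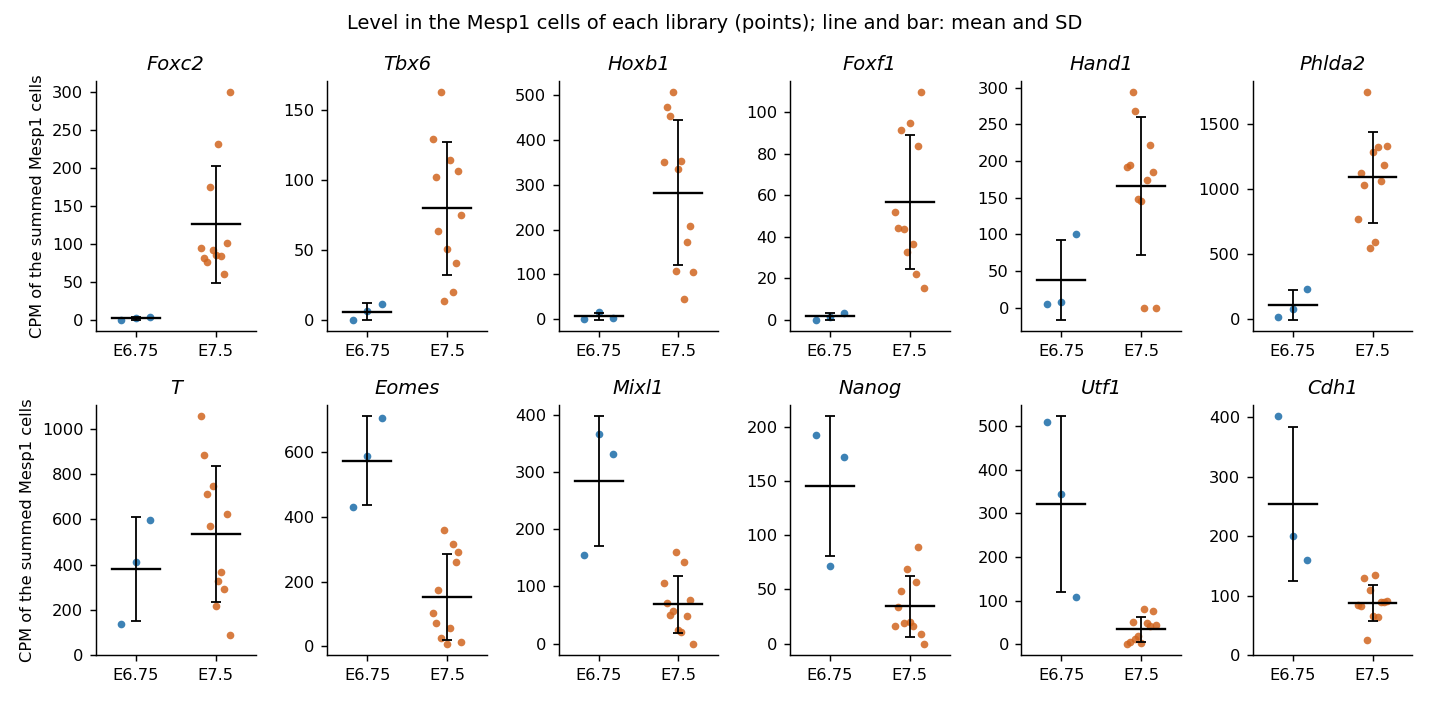
Points are the level (CPM) of 12 genes in the summed Mesp1 cells of each library, blue for 3 E6.75 and orange for 11 E7.5 libraries, and lines and bars are the mean and SD. Foxc2, Tbx6, Hoxb1, Foxf1 and Phlda2 are higher in every E7.5 library than in any E6.75 library, Eomes, Utf1 and Cdh1 are lower in every one, and T overlaps.

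Genes of the primitive streak were split. Of 23 listed genes of streak and nascent mesoderm, 19 were tested, 6 fell and 3 rose, with a median log2 change of −0.43. Mixl1 was at 154 CPM in 2_9, 366 in 2_13 and 332 in 2_14, and at 0 to 159 at E7.5 with a median of 56.3. Only the top of the E7.5 range reached the lowest E6.75 library, and Mixl1 fell by 1.92 on the log2 scale (SE 0.354, edgeR adjusted p = 0.00132). Eomes was at 430, 587 and 704 CPM in the same libraries and at 8.81 to 361 (median 103) at E7.5, without overlap. It fell by 1.81 (SE 0.484, edgeR adjusted p = 0.0168), a call that did not stand without replicate 2_13 (−1.81, adjusted p = 0.0780) or 2_14 (−1.64, adjusted p = 0.0906), which leave 2 E6.75 libraries. Both falls were larger with at least 2 Mesp1 transcripts, at −2.54 for Mixl1 and −2.59 for Eomes.

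The ligands of the early streak were lower too. Wnt3, the WNT ligand needed to form the streak, was at 23.4, 62.7 and 167 CPM in 2_9, 2_13 and 2_14 and at 8.81 to 46.1 (median 21.0) at E7.5. The lowest E6.75 library lay within the E7.5 range. Wnt3 fell by 1.93 (SE 0.374, edgeR adjusted p = 0.00191), but the change was −1.03 (adjusted p = 0.146) without 2_14. Nodal, the TGFB-family ligand of mesendoderm, fell by 2.32 (SE 0.557, adjusted p = 0.00849), or by 1.66 (adjusted p = 0.193) without 2_14. Apln, the ligand of the apelin receptor, was at 150, 94.6 and 107 CPM and at 0 to 82.6 at E7.5, and fell by 1.21 (SE 0.287, adjusted p = 0.00829).

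Other streak genes were present at both stages. T was at 136, 409 and 595 CPM in 2_9, 2_13 and 2_14 and at 90.0 to 1059 (median 569) at E7.5. The ranges overlapped widely, and the log2 change of 0.49 (SE 0.414, edgeR adjusted p = 0.510) did not pass. Lefty2, a secreted inhibitor of NODAL, was at 23.4, 296 and 298 CPM and at 93.7 to 524, with a change of 0.30 (adjusted p = 0.720). Lhx1, Snai1 and Sp5 did not pass in all Mesp1 cells, but with at least 2 Mesp1 transcripts they fell, by 2.29, 1.28 and 1.26 on the log2 scale (edgeR adjusted p = 0.0238, 0.0221 and 0.00184). In that fit, 12 of 20 tested genes of the list were lower, 2 were higher, and the median was −1.27.

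Paraxial and presomitic mesoderm genes, which pattern the tissue that forms somites, formed the list with the highest share of rises among the mesoderm lists. Of 20 genes, 14 were tested, 11 rose and 0 fell, with a median log2 change of 3.15. Among cells with at least 2 Mesp1 transcripts, 7 of 15 were higher, 0 were lower and the median was 2.36. Foxc2, a forkhead factor of paraxial mesoderm, was at 0, 2.46 and 3.31 CPM in 2_9, 2_13 and 2_14, and at 60.5 to 299.95 (median 92.2) at E7.5. No E6.75 library came near the E7.5 range. The rise was 5.34 on the log2 scale (SE 0.651, edgeR adjusted p = 3.13e-05) and 4.61 with at least 2 Mesp1 transcripts. Its relative Foxc1 was at 4.68, 6.14 and 6.61 CPM and at 38.4 to 299.95, again without overlap, and rose by 3.92 (SE 0.60, adjusted p = 0.000243).

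Tbx6, the T-box factor that directs cells from neural to paraxial fate, was at 0, 6.14 and 11.6 CPM and at 13.4 to 163 (median 74.99) at E7.5, without overlap. It rose by 3.36 (SE 0.691, edgeR adjusted p = 0.00287) and by 2.77 with at least 2 Mesp1 transcripts. Pcdh19, a protocadherin, was at 9.35, 17.2 and 28.1 CPM and at 100.01 to 725 (median 336), and rose by 3.95 (SE 0.624, adjusted p = 0.000319). Rspo3, a secreted enhancer of WNT signalling, and Twist1, a helix-loop-helix factor of mesenchyme, rose by 2.61 and 2.38 (adjusted p = 0.000347 and 0.00138). Neither overlapped between the stages.

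Some paraxial genes were at 0 at E6.75. Hes7, the oscillating repressor of the segmentation clock, had 0 transcripts in the 3 E6.75 libraries and 160 at E7.5, where 10 of 11 libraries held it. Against a floor of 3 counts over the E6.75 group it was at least 17.8-fold higher. Aldh1a2, the enzyme that makes retinoic acid in the early embryo, had 0 transcripts at E6.75 and 386 at E7.5, at least 43.0-fold higher. It was found in 45 of 125 cells at E7.5 and in 0 of 29 at E6.75, which allows a share of up to 10.3%. The edgeR adjusted p for Aldh1a2 was 0.0168, and 0.108 without 2_13, 0.0661 without 2_14 and 0.0992 with at least 2 Mesp1 transcripts. The NOTCH ligands Dll1 and Dll3 rose by 2.21 and 1.51 (adjusted p = 0.0233 and 0.0488), calls that were lost without 2_13 (0.138 and 0.259) or 2_9 (0.0795 and 0.163), and Dll3 also without any one of E7.5 replicates 2, 4, 8, 10, 11 and 12 (0.0555 to 0.0710). Their adjusted p were 0.169 and 0.302 with at least 2 Mesp1 transcripts. Ripply2, a somite boundary gene, ranged from 0 to 765 CPM at E7.5 and did not pass (adjusted p = 0.145).

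Cardiac, lateral and extraembryonic mesoderm genes rose in part. Of 23 listed, 13 were tested, 6 rose and 0 fell, with a median of 1.62. Of 16 tested with at least 2 Mesp1 transcripts, 3 were higher and 2 were lower. Bmp4, the ligand that extraembryonic tissues use to induce posterior mesoderm, was at 0, 9.83 and 3.31 CPM in 2_9, 2_13 and 2_14 and at 15.0 to 178 (median 113) at E7.5. The stages did not overlap, and Bmp4 rose by 4.21 (SE 0.621, edgeR adjusted p = 0.000194). Foxf1, a forkhead factor of lateral and extraembryonic mesoderm, had 3 transcripts at E6.75 and 282 at E7.5. The ratio of pooled levels was 31.4 with a counting interval of 10.6 to 153, and E7.5 libraries ranged from 15.0 to 109 CPM.

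Hand1, a factor of extraembryonic and lateral mesoderm, was at 4.68, 8.60 and 101 CPM and at 0 to 294 (median 185) at E7.5. It was at 0 in E7.5 replicates 8 and 12, and the ranges overlapped. Its rise of 2.03 (SE 0.636, edgeR adjusted p = 0.0403) was lost without 2_13 (1.40, adjusted p = 0.269), without 2_9 (1.74, adjusted p = 0.140), without any one of E7.5 replicates 1, 2, 3, 4, 10 and 11 (0.0505 to 0.0588) and with at least 2 Mesp1 transcripts (1.62, adjusted p = 0.148). Tbx20, Isl1 and Myl7, of the forming heart, rose by 3.004, 1.83 and 2.56 (adjusted p = 0.0129, 0.0246 and 0.0220). None of these calls stood without 2_13 (adjusted p = 0.143, 0.255 and 0.0867), and Isl1 and Myl7 also lost theirs without 2_14 (0.0630 and 0.108) and Myl7 without 2_9 (0.0678). Tbx20 and Myl7 did not pass with at least 2 Mesp1 transcripts (0.0875 and 0.265).

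Gata4 and Gata6 did not rise with the rest of that list. Gata4 was at 0, 140.1 and 191.8 CPM in 2_9, 2_13 and 2_14 and at 12.2 to 104 at E7.5, with a change of −0.95 (edgeR adjusted p = 0.165). Gata6 was at 0, 116 and 136 CPM and at 16.3 to 109, with a change of −0.70 (adjusted p = 0.297). With at least 2 Mesp1 transcripts, which leaves out 2_9, the changes were −1.65 and −1.45 (adjusted p = 0.0112 and 0.0243).

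Of 17 blood and endothelial genes, 4 were tested. Kdr, the VEGF receptor of their common progenitor, was at 0, 28.3 and 66.1 CPM and at 0 to 135 and did not pass (0.96, edgeR adjusted p = 0.328). Etv2, an ETS factor of the same lineage, was at 4.68, 8.60 and 316 CPM and at 0 to 85.3 at E7.5. Of 199 Etv2 transcripts at E6.75, 178 (89.5%) were in 1 cell of 2_14. Its fall of 2.11 (adjusted p = 0.0494) became a difference of 1.76 in the other direction (adjusted p = 0.349) without that library, and the p lay between 0.0522 and 0.0725 without any one of 10 E7.5 libraries. Cdh5 and Hbb-bh1, of vessels and red cells, were at 0 in every library.

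HOX genes are switched on in sequence in the posterior embryo. Hoxb1 was at 0, 14.7 and 3.31 CPM in 2_9, 2_13 and 2_14 and at 45.7 to 507 (median 335) at E7.5. The lowest E7.5 library was above the highest E6.75 library, and Hoxb1 rose by 5.07 (SE 0.743, edgeR adjusted p = 0.000191) and by 4.43 with at least 2 Mesp1 transcripts. Cdx2, a caudal-type homeobox factor of the posterior embryo, did not pass (2.57, edgeR adjusted p = 0.0547).

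The epiblast program was lower at E7.5. Of 25 listed epiblast and pluripotency genes, 19 were tested, 14 fell and 1 rose, with a median log2 change of −1.61. Utf1 was at 509.8, 345 and 109 CPM in 2_9, 2_13 and 2_14 and at 2.04 to 81.4 (median 43.2) at E7.5, without overlap, and fell by 3.37 (SE 0.520, edgeR adjusted p = 0.00026). L1td1, an RNA-binding protein of pluripotent cells, was at 416, 322 and 241 CPM and at 0 to 163, and fell by 2.21 (SE 0.317, adjusted p = 0.000161). Dppa5a, likewise a pluripotency gene, was at 65.5, 65.1 and 49.6 CPM and at 0 to 21.7, and fell by 3.17 (SE 0.473, adjusted p = 0.000194). The stages overlapped in neither gene.

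The core pluripotency factors differed in size of change. Nanog was at 191.8, 71.3 and 172 CPM and at 0 to 89.3 (median 19.8) at E7.5, with some overlap, and fell by 1.90 (SE 0.410, edgeR adjusted p = 0.00395). Pou5f1, the gene of OCT4, was at 458, 419 and 403 CPM and at 205 to 348 at E7.5. It did not overlap and fell by 0.74 (SE 0.155, adjusted p = 0.00340), with an adjusted p of 0.0526 in cells with at least 2 Mesp1 transcripts. Sox2 was at 60.8, 49.1 and 61.2 CPM and at 0 to 66.2 and did not pass (−1.35, adjusted p = 0.129). Dnmt3b and Dnmt3a, the de novo DNA methyltransferases, fell by 1.61 and 1.42 (adjusted p = 0.000797 and 0.000240), and the change of Dnmt3a was −0.81 (adjusted p = 0.0733) with at least 2 Mesp1 transcripts. In that fit, 6 of 16 tested genes of the list were lower and 0 higher, with a median of −1.08.

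Adhesion and matrix genes changed in both lists tested. Of 20 mesenchymal genes, 10 were tested, 8 rose and 0 fell (median 1.26), and of 25 epithelial genes, 16 were tested, 5 fell and 1, the keratin gene Krt8, rose (median −0.85). The call of Krt8 did not stand without any one of the 3 E6.75 libraries (edgeR adjusted p 0.0816 to 0.134) or with at least 2 Mesp1 transcripts (0.189). Cdh1 was at 402, 200.3 and 160.4 CPM in 2_9, 2_13 and 2_14 and at 25.0 to 134 (median 89.3) at E7.5, without overlap, and fell by 1.45 (SE 0.258, edgeR adjusted p = 0.000947). Cdh2, the gene of N-cadherin, was at 9.35, 57.8 and 87.6 CPM and at 104 to 195, and rose by 1.25 (SE 0.275, adjusted p = 0.00471). Epcam, an epithelial adhesion molecule, fell by 1.82 (SE 0.276, adjusted p = 0.000227). None of the 3 overlapped between stages.

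In cells with at least 2 Mesp1 transcripts, 3 of 11 tested mesenchymal genes were higher and 2, Snai1 and Cdh11, were lower (median 0.87), and 1 of 12 epithelial genes was lower (median −0.24). There the change was −0.92 for Cdh1 (edgeR adjusted p = 0.170), −1.08 for Epcam (0.104), 0.66 for Cdh2 (0.127) and 0.47 for Fn1 (0.313), against 1.31 for Fn1 in all Mesp1 cells (adjusted p = 0.0284, or 0.0672 without 2_13). Twist1, Vim and Tcf4 were called in both, at 1.99, 1.83 and 0.91 with at least 2 transcripts (adjusted p = 0.0459, 0.0211 and 0.0320), though in all Mesp1 cells Vim lost its call without 2_13 (0.0635) and Tcf4 without 2_14 (0.132). Esrp1, an epithelial splicing regulator, fell by 1.91 in all Mesp1 cells and its change was −2.15 with at least 2 transcripts (adjusted p = 0.00349 and 0.0203). Of 13 tested matrix genes and receptors of 32 listed, 6 rose and 0 fell (median 1.08). Lama1, a laminin chain, was at 0, 4.92 and 4.96 CPM and at 11.02 to 135 at E7.5, and rose by 3.35 (SE 0.636, adjusted p = 0.00161).

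Migration cues included a receptor and its ligand that moved in opposite directions. Aplnr, the apelin receptor, was at 0, 8.60 and 14.9 CPM in 2_9, 2_13 and 2_14 and at 30.7 to 95.7 at E7.5, and rose by 2.66 (SE 0.429, edgeR adjusted p = 0.000396), while Apln fell as given above. Neither overlapped between the stages. Unc5c, a netrin receptor, had 0 transcripts at E6.75 and 116 at E7.5, at least 12.9-fold higher. Pdgfra, the PDGF receptor of migrating mesoderm, was at 0, 83.6 and 119 CPM and at 89.3 to 300.2 (median 161) at E7.5. Its rise of 1.21 (SE 0.364, adjusted p = 0.0340) was 0.84 (adjusted p = 0.0881) without 2_9 and 0.42 (0.381) with at least 2 Mesp1 transcripts, and the p was 0.131 without 2_13 and 0.0512 without E7.5 replicate 1. Of 34 genes of ephrins, guidance and migration, 23 were tested, 6 rose and 2 fell (median 0.61).

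In the signalling lists, targets and inhibitors were among the genes with the smallest p. In the NODAL and TGFB list, 15 of 22 genes were tested, 5 fell and 2 rose (median 0.30). Skil and Pmepa1, feedback inhibitors that TGFB-family signals switch on, were at 154, 171 and 149 CPM and at 103, 141 and 121 CPM at E6.75. At E7.5 they were at 25.0 to 69.1 and 2.20 to 43.5 CPM, without overlap. They fell by 1.74 and 2.92 (SE 0.194 and 0.421, edgeR adjusted p = 1.60e-05 and 0.000161), and by 1.54 and 3.10 with at least 2 Mesp1 transcripts. Smad3, a signal transducer of the pathway, rose by 1.95 (adjusted p = 0.00458). Tdgf1, the NODAL co-receptor, fell by 1.76 (adjusted p = 0.0324), a call lost without 2_13 (0.112) or 2_14 (0.179) and with at least 2 Mesp1 transcripts (0.0580). Nodal was not tested in that last fit.

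In the BMP, WNT and FGF lists, rises and falls were both found. Of 16 tested BMP genes of 22, Bmp4 rose and Smad1 fell, Smad1 by 0.95 (edgeR adjusted p = 0.0315, or 0.280 without 2_13 and 0.168 without 2_14), with a median of 0.14 over the list. Of 23 tested WNT genes of 37, 6 rose and 1 fell (median 0.23). Axin2, a WNT target, was at 40.5 to 74.8 CPM in E6.75 and 40.7 to 91.1 in E7.5 libraries and did not pass (0.03, adjusted p = 0.963). Lef1, a transcription factor of the pathway, rose by 1.03 (adjusted p = 0.0105, or 0.0800 without 2_13, 0.0599 without 2_14 and 0.163 with at least 2 Mesp1 transcripts). Of 15 tested FGF genes of 23, 4 fell and 3 rose (median 0.04). Dusp6 and Etv5, both switched on by FGF signals, fell by 1.33 and 1.17 (adjusted p = 0.00585 and 0.000621) without overlap between stages.

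NOTCH and retinoic acid genes gave few calls that stood throughout. Of 11 tested NOTCH genes of 21, 4 rose and 1 fell (median 0.77). Hes1, a NOTCH target repressor, fell by 1.59 (edgeR adjusted p = 0.00766, or 0.0626 without 2_14), and Hes7 rose. Of 8 tested retinoic acid genes of 18, 3 rose and 0 fell (median 0.67). Crabp1, a retinoic acid binding protein, was at 4.68, 20.9 and 1.65 CPM in 2_9, 2_13 and 2_14 and at 94.7 to 389.9 at E7.5, without overlap, and rose by 3.67 (SE 0.466, adjusted p = 4.81e-05).

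Imprinted genes, which are expressed from 1 parental copy and include growth regulators, had more rises than falls. Of 24 genes, 19 were tested, 13 rose and 2 fell, with a median log2 change of 1.24. Phlda2, which restrains placental growth, was at 14.03, 76.2 and 235 CPM in 2_9, 2_13 and 2_14 and at 551 to 1745 (median 1124) at E7.5. It rose by 3.17 (SE 0.424, edgeR adjusted p = 8.76e-05). Igf2, the embryonic growth factor, was at 4.68, 12.3 and 29.8 CPM and at 85.4 to 719.9 at E7.5, and its neighbour H19, a noncoding RNA, at 60.8, 79.9 and 159 CPM and at 288 to 1041. None of these 3 overlapped, and Igf2 and H19 rose by 4.34 and 2.66 (SE 0.645 and 0.404, adjusted p = 0.000194 and 0.000227). With at least 2 Mesp1 transcripts, 6 genes of the list were higher and 0 lower, with a median of 1.21. Meg3 and Snrpn fell by 0.92 and 0.75 (adjusted p = 0.0360 and 0.0166), and neither call stood without 2_13 (0.117 and 0.138) or with at least 2 Mesp1 transcripts (0.494 and 0.0800). Meg3 also lost its call without 2_9 (0.219), without E7.5 replicate 6 (0.0529) and without replicate 8 (0.0508).

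**Figure D4:**
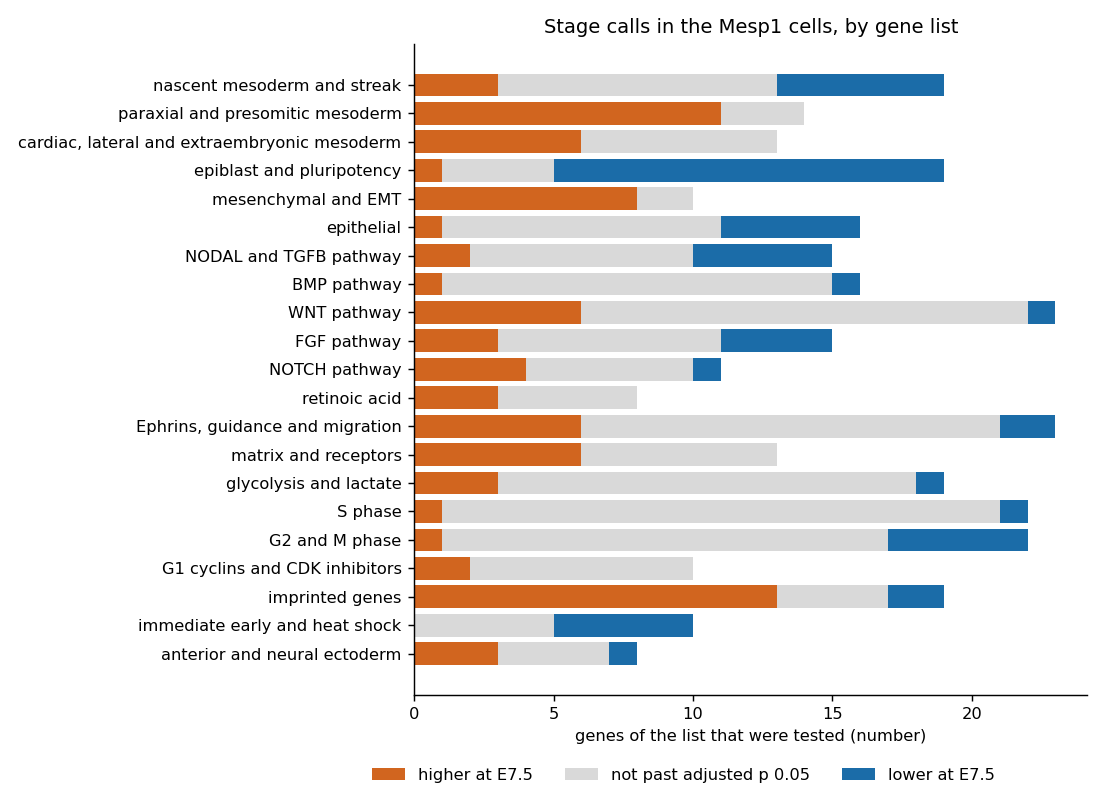
Bars give, for each gene list, the number of genes tested that were higher (orange) or lower (blue) at E7.5 at an edgeR adjusted p under 0.05, or neither (grey), in all Mesp1 cells. Paraxial mesoderm (11 of 14) and imprinted genes (13 of 19) have most rises, epiblast genes most falls (14 of 19), and S phase genes 1 of each among 22.

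Cell cycle and glycolysis lists held fewer calls than the epiblast and imprinted lists. Over all genes tested, 5.76% were higher and 5.50% lower. Of 22 S phase genes, 22 were tested, with 1 higher, 1 lower and a median of 0.0039. Of 22 G2 and M phase genes, 1 rose and 5 fell (median −0.34), with Top2a, a topoisomerase, at −0.90 (SE 0.178, edgeR adjusted p = 0.00225). With at least 2 Mesp1 transcripts, 0 of these 5 falls passed. Of 19 tested glycolysis genes of 21, 3 rose and 1 fell (median 0.20). Slc16a3, a lactate transporter, fell by 0.91 (adjusted p = 0.00941, or 0.273 with at least 2 Mesp1 transcripts), and Ldha, lactate dehydrogenase, was at 4642 to 5257 CPM and 3872 to 5607 CPM and did not pass (−0.16, adjusted p = 0.365).

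Immediate early and heat shock genes, some of which respond to handling of cells, also moved with the stage. Summed over 17 genes of the immediate early and heat shock list, levels were 8709 to 11408 CPM at E6.75 and 4934 to 6891 CPM at E7.5, without overlap. The sum does not separate a response to handling from standing expression. Of 10 tested, 5 fell and 0 rose (median −0.82). Egr1, an immediate early transcription factor, was at 201, 147 and 174 CPM and at 11.02 to 119.98, and fell by 2.19 (SE 0.320, edgeR adjusted p = 0.000191). Their part in the other results was not tested.

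Markers of other cell types overlapped between stages for some lists and not for others. The summed level of 14 definitive endoderm genes was 291 to 440 CPM at E6.75 and 100.1 to 448 CPM at E7.5, with Sox17 at 3 and 6 transcripts and Pyy at 0. That of 18 visceral endoderm genes was 120.4 to 159 and 165 to 350.1 CPM, without overlap, with Hnf4a and Apoa4 at 0. Apoe was at 57.8 to 112 and 106 to 289 CPM of it and was higher at E7.5 (1.12, edgeR adjusted p = 0.00859, or 0.133 without 2_13 and 0.166 with at least 2 Mesp1 transcripts). That of 16 extraembryonic ectoderm genes was 36.9 to 179 and 32.6 to 321 CPM, with Rhox6 and Rhox9 at 0. That of 12 node genes was 60.2 to 107 and 43.8 to 194 CPM, with Noto at 0. Among calls, 2 definitive endoderm genes were higher at E7.5 and 2 lower, and 2 node genes were higher and 1 lower. Cer1, in both lists, had 1 transcript at E6.75 and 135 at E7.5, where 20 cells of 9 libraries held it. Its higher call was lost without any one of the 3 E6.75 libraries (edgeR adjusted p 0.0755 to 0.254). It was also lost without any one of E7.5 replicates 1, 6, 8 and 12, and with at least 2 Mesp1 transcripts. Primordial germ cell genes (10) summed to 60.8 to 268 and 286 to 1170 CPM, without overlap, with Nanos3 at 0, of which Ifitm1, a gene also expressed in early mesoderm, made 4.68 to 150.4 and 246 to 1140. Ifitm1 rose by 2.44 (SE 0.447, adjusted p = 0.00129). The part of these genes in the results above was not tested.

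Some genes of posterior neural and neuromesodermal cells were higher at E7.5. The summed level of 17 neural genes was 195 to 402 CPM at E6.75 and 135 to 574 CPM at E7.5. Foxb1 and Nkx1-2, of posterior neural plate and its progenitors, had 0 transcripts at E6.75 and 305 and 331 at E7.5, at least 33.9-fold and 36.8-fold higher (edgeR adjusted p = 0.00419 and 0.00192). Among E7.5 cells, Foxb1 was at 116 CPM in those with 1 Mesp1 transcript and 31.2 in those with 3 or more, and Nkx1-2 at 138 and 36.1. Sox2 was at 58.5 and 4.90 CPM in these classes and at 144 in Mesp1-negative cells. With at least 2 Mesp1 transcripts, Foxb1 and Nkx1-2 did not pass (adjusted p = 0.113 and 0.0536).

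The share of Mesp1 cells with a given gene was compared for 12 genes after each cell was thinned to 2000 transcripts in a single random draw. In that draw Meox1 was found in 0 cells and Msgn1 in 1 cell, at E7.5. Neither could thus pass, though both count in the adjustment over the 12 genes. None of the 12 differed at an adjusted p under 0.05 (exact two-sided permutation test over 364 arrangements of 3 and 11 libraries, smallest possible p = 0.00275), and 2 had an unadjusted p under 0.05. Hoxb1 was found in 0 of 29 cells at E6.75 and in 35.4% ± 17.3 (SD, n = 11) of the cells of a library at E7.5, with an exact permutation p of 0.00549 (adjusted 0.0659). Without thinning it was found in 12.7% ± 11.1 (SD, n = 3) and 70.6% ± 18.1. In visceral endoderm cells at E6.75 it was found in 0 of 48, which allows a share of up to 6.25%. After thinning, 60.6% ± 24.8 of E6.75 and 34.6% ± 13.4 of E7.5 cells held Pou5f1 (p = 0.0385 by the exact permutation test, adjusted 0.231). Before thinning, 100% of E6.75 and 90.3% ± 9.79 of E7.5 Mesp1 cells held Pou5f1 (exact permutation p = 0.165, adjusted 0.276), and 62.5% of the visceral endoderm cells did. Thinned cells held Eomes in 50.1% ± 15.4 at the earlier and 23.1% ± 23.8 at the later stage (p = 0.104 by the exact permutation test, adjusted 0.270), and 87.5% of visceral endoderm cells held it before thinning. Without thinning, Eomes was found in 100% of E6.75 and 60.2% ± 24.3 of E7.5 Mesp1 cells (exact permutation p = 0.0165, adjusted 0.0396) and Nanog in 90.3% ± 10.0 and 31.5% ± 17.4 (exact permutation p = 0.00275, adjusted 0.0165). Hoxb1, Tbx6 and Foxf1 rose without thinning (exact permutation test, adjusted p = 0.0165, 0.0396 and 0.0220). Tbx6 was in 16.6% ± 18.4 and 44.7% ± 13.3, and Foxf1 in 5.25% ± 4.71 and 42.3% ± 19.4. Unthinned shares also depend on depth, whose median was 61109 transcripts at E6.75 and 39958 at E7.5.

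Pairs of mesoderm genes were counted within E7.5 Mesp1 cells (without a test, at unequal depth). Tbx6 was found in 59 of 125 cells and Hand1 in 66, with both in 27 and neither in 27. Of 48 cells with Foxf1, 36 held Hand1, and of 59 with Tbx6, 54 held Hoxb1, which was found in 90 of all 125. Of 45 cells with Aldh1a2, 44 held Hoxb1 and 31 held Tbx6. At E6.75, Tbx6 was found in 6 cells and Hand1 in 9 of 29, with both in 4, and each of these cells held T and Eomes.

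The last comparison asks whether the difference between Mesp1 cells and the other Foxa2-negative cells of the same library changed between stages, so that levels common to both sets of cells cancel. It set 141 Mesp1-negative cells at E6.75 and 242 at E7.5 against the Mesp1 cells of the same 14 libraries. Median depth of the Mesp1-negative cells was 48598 transcripts at E6.75 and 23987 at E7.5, beside 61109 and 39958 in Mesp1 cells. In E7.5 replicates 9 and 10 it was 4613 and 5925. A shallower cell can more easily show 0 of Mesp1. The effect of depth on which cells count as Mesp1-negative was not tested. Of 7891 genes, 43 or 0.545% differed (edgeR quasi-likelihood test of the interaction, adjusted p under 0.05), 39 with a lower level in Mesp1 relative to other cells at E7.5 than at E6.75 and 4 with a higher one. The count was 60 with at least 2 Mesp1 transcripts, 34 of them among the 43. The median change over all genes was −0.0051. Of the 43, 10 were also among the 786 stage calls. In pooled Mesp1-negative cells (no test), Phlda2 was at 21.8 CPM at E6.75 and 301 at E7.5, Hoxb1 at 0.438 and 99.0, and Utf1 at 641 and 138. For these genes the direction was that seen in Mesp1 cells, while Mixl1 went the other way, at 9.20 and 21.6 CPM. The count was 20 without 2_13 and 10 without 2_14. Among named genes, 6 of 28 negative ones (Apln, Cdh11, Fgf3, Gata6, Mixl1 and Sp5) and 0 of 4 positive ones passed in every fit that left out 1 library.

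Some mesoderm genes that were almost absent from Mesp1-negative, Foxa2-negative cells at E6.75 were found in such cells at E7.5. Foxa2-positive cells were not part of this comparison. Fgf3, an FGF ligand, was at 0, 74.95 and 82.7 CPM in the Mesp1 cells of 2_9, 2_13 and 2_14 and at 0 to 0.973 in the other cells of these libraries. At E7.5 it was at 40.7 to 168 CPM in Mesp1 cells and at 6.93 to 199.8 in the others. The difference between the gates changed by −5.96 on the log2 scale (SE 0.854, edgeR adjusted p = 0.000125). Gata6 was at 0, 116 and 136 CPM against 0.510 to 1.62 at E6.75, and at 16.3 to 109 against 0 to 114 at E7.5, a change of −5.29 (SE 0.765, adjusted p = 0.000125). In both genes the lowest E6.75 value was that of 2_9.

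Mixl1 was at 154 to 366 CPM in Mesp1 cells and 3.88 to 14.6 in the others at E6.75, and at 0 to 159 and 0 to 123 at E7.5. Its difference between the gates changed by −3.64 (SE 0.449, edgeR adjusted p = 2.32e-05), and it was higher in Mesp1 cells in 3 of 3 E6.75 and 9 of 11 E7.5 libraries. Sp5, a WNT target, and Cdh11, a mesenchymal cadherin, changed by −4.26 and −3.99 (adjusted p = 2.29e-05 and 2.95e-05). Apln changed by −2.69 (adjusted p = 2.95e-05), being higher in Mesp1 cells in 3 of 3 libraries at E6.75 and 3 of 11 at E7.5. For T the change was −2.66 (adjusted p = 0.0181), with other cells at 11.2 to 48.0 CPM in E6.75 libraries and 0 to 1314 in E7.5 libraries. The change of T did not pass without 2_13 (adjusted p = 0.387) or 2_14 (0.135).

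Kdr, Irx5 and Cyp26a1 also had a smaller excess at E7.5, with changes of −5.51, −5.47 and −4.61 (edgeR adjusted p = 0.00569, 0.000125 and 0.000661). Irx5 is a homeobox factor, and Cyp26a1 encodes an enzyme that breaks down retinoic acid. Without 2_14 their adjusted p were 0.517, 0.104 and 0.110, and that of Kdr was 0.0524 without 2_13.

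Lefty2 went the other way. It was at 23.4 to 298 CPM in Mesp1 cells and 22.7 to 62.2 in the others at E6.75, and at 93.7 to 524 and 0 to 164 at E7.5, where it was higher in Mesp1 cells in 11 of 11 libraries. The change was 2.14 (SE 0.485, edgeR adjusted p = 0.0312), or an adjusted p of 0.186 without 2_13, 0.0591 without 2_9, 0.0627 without E7.5 replicate 2 and 0.0502 without replicate 4. It was 0.202 with at least 2 Mesp1 transcripts. Sox2 was higher in Mesp1 cells in 0 of 3 and 0 of 11 libraries, and its difference was larger at E7.5 (0 to 66.2 CPM against 0 to 234) than at E6.75 (49.1 to 61.2 against 74.9 to 119.8), a change of −1.47 (adjusted p = 0.0134, or 0.268 without 2_14). Slc2a3, a glucose transporter, was at 117 to 178 CPM in Mesp1 cells and 131 to 184 in the others at E6.75, and at 84.8 to 367 and 205 to 1238 at E7.5, a change of −1.72 (adjusted p = 0.00197, or 0.0727 without 2_14).

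**Figure D5:**
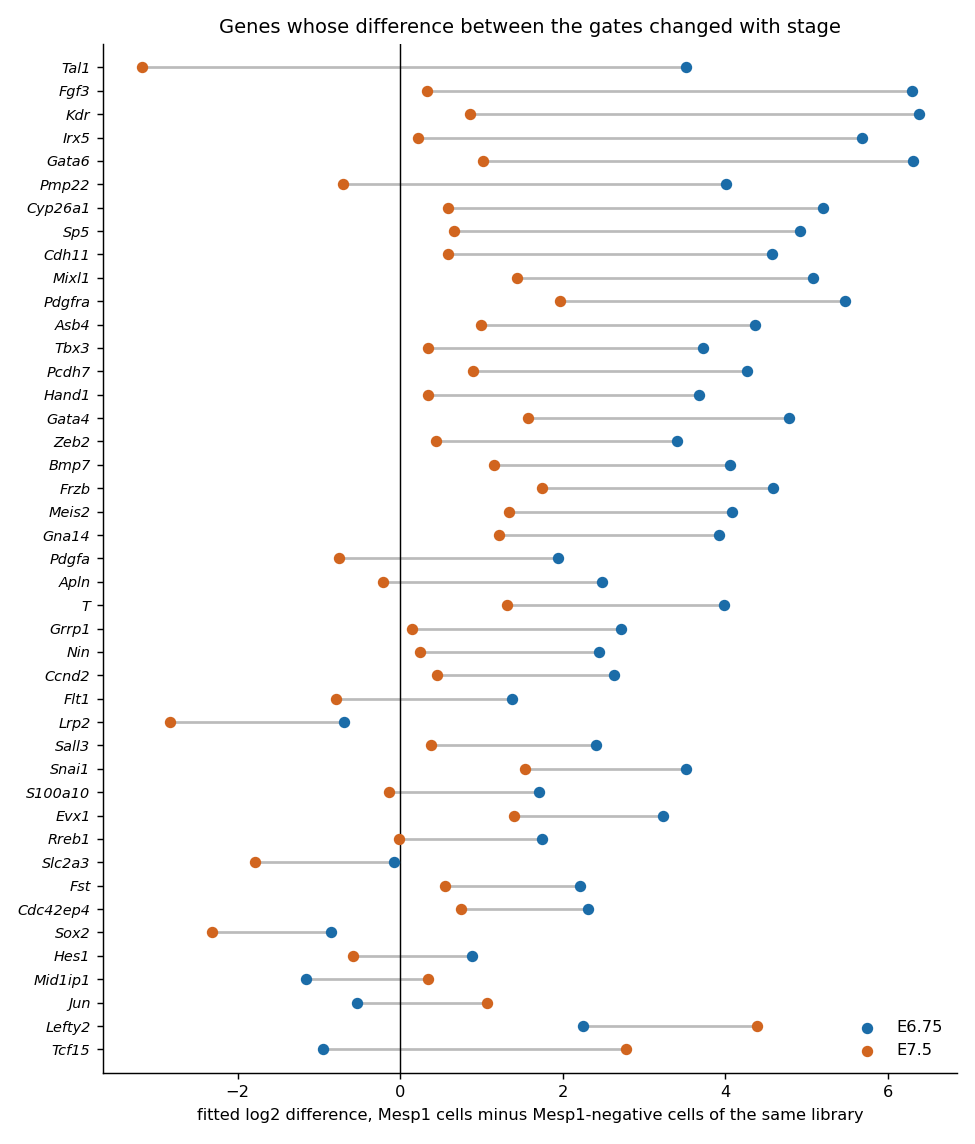
For each of the 43 genes, the blue and orange points are the fitted log2 difference between Mesp1 cells and Mesp1-negative, Foxa2-negative cells of the same library at E6.75 and E7.5. For 39 genes the E7.5 point lies to the left of the E6.75 point, and for Lefty2, Jun, Mid1ip1 and Tcf15 to the right.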

How the data were processed

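The authors deposited, per gene and cell barcode, estimated counts of transcripts: each nonzero value equals −K ln(1 − k/K) for k observed UMIs with K = 4096 (largest deviation 4.73e-11), so UMI collisions were corrected and depth was not. The submitters' processing notes name bcl2fastq 2.17.1.14 and BWA 0.6.2-r126. The genome build, annotation and use of strand are not given in the sources used here, so reads of overlapping genes, and of Mesp1 and its close relative Mesp2, may be shared.

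Each library filled 96 of 192 barcode columns. Depth excluded ERCC spike-ins (74 features) and mitochondrial genes (22). No doublet caller was run. Estimated counts were rounded to whole numbers and summed over the Mesp1 cells of each library with at least 3 of them. edgeR 4.0.16 in R 4.3.3 (TMM, filterByExpr, quasi-likelihood F test, Benjamini-Hochberg over all genes tested, call at 0.05) tested the stage and, with the library as a block, the gate-by-stage interaction. DESeq2 1.42.0 was an alternative. The script was tested on simulated counts. Intervals of pooled ratios are exact and cover counting error only (95%). Shares used scipy 1.17.1.

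Named genes were those of fixed lists plus the 12 largest rises and falls among called genes with a mean of at least 50 CPM and a count in every library of the higher stage, leaving out selecting, sex-linked and ribosomal protein genes and names of Gm plus digits. For the interaction, the 6 largest each way and any listed gene were named. The selection rule, the members and the lists were chosen with earlier results of these data known.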

Additional observations from a re-analysis of the deposited data

Results flagged for a closer look

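The difference between Mesp1 cells and the other Foxa2-negative cells of their libraries changed between stages for 43 genes of 7891, by the test of the interaction itself (edgeR quasi-likelihood test, adjusted p under 0.05). Among those named by the rule, the log2 change of the difference was −5.96 for Fgf3, −5.51 for Kdr, −5.47 for Irx5, −5.29 for Gata6, −4.71 for Pmp22 and −4.61 for Cyp26a1, so that Mesp1 cells stood lower relative to the other cells at E7.5 than at E6.75. It was 2.14 for Lefty2, 1.60 for Jun and 1.51 for Mid1ip1. Pmp22, a membrane protein gene, was higher in Mesp1 cells in 2 of 3 libraries at E6.75 and in 3 of 11 at E7.5, Jun, an immediate early factor, in 1 of 3 and 8 of 11, and Mid1ip1 in 0 of 3 and 6 of 11. Without E6.75 replicate 2_13, 2_14 or E7.5 replicate 9, the edgeR adjusted p of Pmp22 was 0.0574, 1 and 0.0565. That of Jun was 0.387 without 2_13, 0.143 without 2_9, 0.0659 without E7.5 replicate 3 and 0.0509 without replicate 4, and that of Mid1ip1 was 0.514 without 2_14. With at least 2 Mesp1 transcripts, Pmp22, Jun and Lefty2 did not pass (0.0535, 0.252 and 0.202).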

How the results depend on the processing

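Counts of stage calls moved by more than 1.5 times from 786 in several settings: 31 (of 378 genes tested) with each cell thinned to 2000 transcripts, 228 with at least 2 Mesp1 transcripts, 445 without very deep cells, 450 with 5 or more and 314 with 10 or more cells per library, 460 with E6.75 replicates 2_13 and 2_14 summed, 268 with at least 1 T transcript, and 333 to 833 with each library left out. DESeq2 called 586, edgeR without a filter 942 and with relative log expression 782. Interaction calls went from 43 to 107 without a filter, to 1 (of 826 tested) with thinning, and to 10 to 52 with each library left out. Shares past the threshold went from 0 of 12 to 5 without thinning, 2 when thinned to 1000 transcripts, 2 when thinned to 5000, 2 with at least 2 transcripts, and 0 to 1 with each library left out. Thinning and leaving out libraries reduce the transcripts and samples tested; other causes were not tested.

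For 127 named genes there were 3429 pairs of a gene and an alternative setting of the stage fit. Of these pairs, 2878 kept direction and call and 550 kept the direction without passing. Etv2 reversed, its change lying between −2.72 and 1.76 with each library left out and at 1.76 without E6.75 replicate 2_14. Some settings repeat the main fit: no endoderm cut and no extraembryonic ectoderm cells each gave the same 786 calls, and observed UMIs shared 785. Their pairs add little to the count kept. For the interaction, 486 of 582 kept both and 96 kept the direction. No paired analysis was possible because the stages share no replicate numbers. The E6.75 side rests on 3 libraries, of which 1 has 3 Mesp1 cells, and this limits its precision.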
